A study of Mus musculus with 8 samples.

Results

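Ddah1, 1110008P14Rik, Trh, Neat1 and Vat1 are 5 genes whose RNA differed between laminin-511 and gelatin coating in the same direction in both culture media of mouse embryonic stem cells. They were selected on these measured levels, that is, on the coating difference in each medium. They are 5 of 22963 genes with a RefSeq transcript row, and all 5 are among the 10278 genes tested. Ddah1 and 1110008P14Rik were higher on laminin-511, and Trh, Neat1 and Vat1 were lower, in Std and in 2i medium alike. Because that difference chose the genes, its values are a description that supports nothing, and the test of the 5 genes is that of the medium. The study sequenced RNA from Bruce 4, a single male C57BL/6J embryonic stem cell line of wild-type genotype, after 2 weeks of conditioning. The 4 groups were laminin-511 (LN511) with 2i, gelatin with 2i, LN511 with Std and gelatin with Std, and each had 2 libraries that the submitters call biological replicates. Sample titles write the laminin coating as LM511 and the culture condition as LN511. The labels do not give the composition of Std medium.

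LN511 is a laminin of basement membranes, which cells bind through integrins, and gelatin is denatured collagen, a common coating for embryonic stem cell dishes. 2i medium holds inhibitors of the kinases MEK and GSK3 and keeps mouse embryonic stem cells in the naive state. The 5 genes were not chosen for a common pathway. Ddah1 encodes an enzyme that breaks down methylated arginines, which inhibit nitric oxide synthases. Trh encodes the precursor of thyrotropin-releasing hormone, a peptide known best from the hypothalamus. Neat1 is a long non-coding RNA that builds paraspeckles, nuclear bodies that hold RNA-binding proteins. Vat1 encodes a membrane protein of the quinone oxidoreductase family, first described in synaptic vesicles. 1110008P14Rik is a protein-coding gene to which the annotation used here gives no role.

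The promoters are shown to see whether short motifs recur upstream of genes that differed together. The sequences are the 250 bases before the RefSeq gene start (GRCm38.p6, the assembly of mm10), 5′ to 3′ on the strand of the gene. They span chr3:145758442-145758691 on the plus strand for Ddah1, chr2:32381916-32382165 on the minus strand for 1110008P14Rik, chr6:92244651-92244900 on the minus strand for Trh and chr11:101466200-101466449 on the minus strand for Vat1. Capitals mark matches, on either strand, to any of 9 motifs: the TATA box (TATAAA), the GC box (GGGCGG), the CCAAT box (CCAAT), AP-1 (TGANTCA), CRE (TGACGTCA), TEAD (GGAATG), STAT (TTCNNNGAA), TCF/LEF (CTTTGAT) and the E-box (CACGTG).
Ddah1: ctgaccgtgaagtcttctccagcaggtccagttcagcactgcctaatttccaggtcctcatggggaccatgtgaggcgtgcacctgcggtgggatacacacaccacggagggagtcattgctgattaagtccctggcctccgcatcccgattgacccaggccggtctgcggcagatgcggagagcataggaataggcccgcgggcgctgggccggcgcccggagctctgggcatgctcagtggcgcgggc
1110008P14Rik: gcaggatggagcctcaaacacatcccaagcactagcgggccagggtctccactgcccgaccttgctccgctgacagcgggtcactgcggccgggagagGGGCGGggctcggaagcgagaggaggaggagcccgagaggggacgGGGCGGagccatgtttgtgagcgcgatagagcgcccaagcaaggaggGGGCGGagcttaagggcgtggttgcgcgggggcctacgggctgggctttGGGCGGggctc
Trh: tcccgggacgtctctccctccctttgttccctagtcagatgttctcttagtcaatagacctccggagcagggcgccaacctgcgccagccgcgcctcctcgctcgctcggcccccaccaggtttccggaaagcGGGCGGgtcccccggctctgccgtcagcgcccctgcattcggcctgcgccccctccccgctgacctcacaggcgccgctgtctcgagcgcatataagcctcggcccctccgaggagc
Vat1: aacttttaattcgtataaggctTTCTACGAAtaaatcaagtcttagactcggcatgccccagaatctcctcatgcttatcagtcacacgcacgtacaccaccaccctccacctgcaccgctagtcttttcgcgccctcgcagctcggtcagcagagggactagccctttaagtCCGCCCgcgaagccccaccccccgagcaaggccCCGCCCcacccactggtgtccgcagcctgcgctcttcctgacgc
GC boxes matched 4 times upstream of 1110008P14Rik, 2 times upstream of Vat1, 1 time upstream of Trh and 0 times upstream of Ddah1, and 33.0% of 32536 windows of the same length held one. The STAT letters matched 1 time, upstream of Vat1, and 7.04% of all windows held them. The AP-1 letters (6.73% of all windows) and the TEAD letters (12.6%) matched in none of the 4 windows. The other 5 motifs, held by 12.3% (TATA box), 33.8% (CCAAT box), 1.56% (CRE), 3.21% (TCF/LEF) and 6.04% (E-box) of all windows, also had no match. No motif of this list was therefore found in all 4 windows. G and C made up 64% of the window for Ddah1, 69.6% for 1110008P14Rik, 68.8% for Trh and 58.4% for Vat1, where the quartiles of all windows were 45.2% and 61.2%.

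Levels are given in FPKM, which divides fragments by transcript length and by depth, and are sums over the RefSeq transcripts of a gene. The files give no fragment counts, but low FPKM values fall on steps, and the step of 1 fragment puts the depth of the 8 libraries within 1.2-fold of each other. Across tested genes, Pearson's r of log2(FPKM + 1) lay at 0.959 to 0.964 for replicate pairs, and for pairs from different groups at 0.907 to 0.955. The 8 embryonic stem cell markers with rows, Pou5f1, Sox2 and Nanog among them, summed to 2376 to 2746 FPKM in every library. Of 8 fibroblast markers, Postn and Lum were at 0 in every library, 1 reached a mean of 1 FPKM, and the sum was 1.54 to 1.99 FPKM in LN511 2i, 2.18 to 2.19 FPKM in gelatin 2i, 3.54 to 3.87 FPKM in LN511 Std and 4.36 to 5.57 FPKM in gelatin Std. Sums of trophoblast, primitive endoderm and neuroectoderm markers were higher on LN511 in Std medium without overlap, and those of mesendoderm markers were lower on LN511 in 2i. The 6 trophoblast markers summed to 13.0 to 20.6 FPKM in LN511 Std and 10.05 to 11.5 FPKM in gelatin Std, and to 6.21 to 8.27 FPKM in LN511 2i and 7.36 to 9.61 FPKM in gelatin 2i. The keratin gene Krt7 among them was at 10.2 and 7.65 FPKM in LN511 Std, against 2.25 and 2.66 FPKM in gelatin Std. Without Krt7 the trophoblast sums did not separate the coatings in Std. The 7 primitive endoderm markers summed to 4.33 to 4.54 FPKM in LN511 Std and 1.38 to 2.05 FPKM in gelatin Std, and to 1.12 to 2.65 FPKM in LN511 2i and 0.868 to 2.00 FPKM in gelatin 2i. The 5 neuroectoderm markers summed to 34.9 to 45.1 FPKM in LN511 Std and 20.9 to 25.9 FPKM in gelatin Std, and to 24.99 to 27.6 FPKM in LN511 2i and 22.4 to 26.7 FPKM in gelatin 2i. For the 5 mesendoderm markers, of which Mesp1 was at 0 throughout, the sums were 0.710 to 1.95 FPKM in LN511 Std and 0.673 to 0.871 FPKM in gelatin Std, and 5.13 to 5.75 FPKM in LN511 2i and 9.60 to 11.4 FPKM in gelatin 2i. Their part in the results was not tested, and in bulk RNA a change in the share of cells and a change in RNA per cell cannot be told apart.

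Ddah1 (mm10 chromosome 3, 145758692 to 145894277) was at 31.6 and 27.98 FPKM in the LN511 2i libraries, against 13.1 and 12.3 FPKM in the gelatin 2i libraries. In Std medium it was at 27.0 and 26.7 FPKM on LN511, against 6.14 and 5.53 FPKM on gelatin. The coatings did not overlap in either medium, and gelatin Std was the lowest group. The difference on the log2(FPKM + 1) scale, LN511 minus gelatin, was 1.17 (SE 0.14) in 2i and 2.03 (SE 0.14) in Std, or 2.35-fold and 4.60-fold in the means. The order of the groups was LN511 2i, LN511 Std, gelatin 2i and gelatin Std, but LN511 2i (29.8 ± 2.55 FPKM, SD, n = 2) and LN511 Std (26.9 ± 0.251 FPKM, SD, n = 2) differed by little more than the spread of LN511 2i. An estimated 51 to 290 fragments lay behind each of these values, a counting error of 13.97% at the fewest and 5.88% at the most, before any other source of spread.

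1110008P14Rik (mm10 chromosome 2, 32379101 to 32381915) was at 18.7 and 31.3 FPKM in LN511 2i, against 11.4 and 15.9 FPKM in gelatin 2i. In Std medium the values were 25.3 and 24.8 FPKM on LN511, against 10.3 and 14.1 FPKM on gelatin. The coatings did not overlap, but the LN511 2i libraries lay far apart and the lower of them was close to the higher gelatin 2i library, 15.9 FPKM. The log2 difference was 0.80 (SE 0.28) in 2i and 0.99 (SE 0.28) in Std. Without LN511 2i replicate 2 the difference in 2i was 0.45, and without replicate 1 it was 1.16. This transcript is short, at 680 bases, and only about 16 to 51 fragments lay behind each value, so that counting alone gave an error of 24.9% at the fewest. Of the 5 genes it is the least precisely measured. The groups of the same coating overlapped between media, so the order of the 4 groups is only LN511 above gelatin.

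Trh (mm10 chromosome 6, 92242061 to 92244650) was at 12.004 and 20.0 FPKM in LN511 2i, against 82.9 and 69.1 FPKM in gelatin 2i. In Std medium it was at 46.2 and 37.8 FPKM on LN511, against 116 and 116 FPKM on gelatin. All 4 groups were separate, with gelatin Std highest, then gelatin 2i, LN511 Std and LN511 2i. The log2 difference was -2.21 (SE 0.23) in 2i, which puts gelatin 4.74-fold above LN511 in the means, and -1.45 (SE 0.23) in Std, which puts it 2.77-fold above. Without LN511 2i replicate 1 the difference in 2i was -1.87, and without replicate 2 it was -2.56. About 40 to 396 fragments lay behind each value.

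Neat1 (mm10 chromosome 19, 5824708 to 5845480) was at 8.17 and 9.45 FPKM in LN511 2i, against 30.5 and 23.3 FPKM in gelatin 2i. In Std medium the values were 14.002 and 15.2 FPKM on LN511, against 38.9 and 45.2 FPKM on gelatin. The 4 groups were again separate and in the same order as for Trh. The log2 difference was -1.50 (SE 0.18) in 2i and -1.46 (SE 0.18) in Std, so gelatin stood 3.06-fold and 2.88-fold above LN511. Neat1 has a short and a long RefSeq transcript that begin at the same end of the gene, and only the long one is essential for paraspeckles. The whole level came from the short transcript, of 3004 bases, and the long one was listed at 0 in all 8 libraries. A 0 in these tables can be a failed estimate, and fragments of the long transcript can fall within the short one, so these values do not say which transcript changed. The exons of the short transcript share 3.66%, 3.76% and 5.06% of their bases with small RNA genes annotated on the same strand.

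Vat1 (mm10 chromosome 11, 101458748 to 101466199) was at 24.3 and 21.3 FPKM in LN511 2i, against 46.8 and 58.3 FPKM in gelatin 2i. In Std medium it was at 22.3 and 17.4 FPKM on LN511, against 35.6 and 39.4 FPKM on gelatin. The coatings did not overlap, while the LN511 libraries of the 2 media did. The log2 difference was -1.16 (SE 0.17) in 2i and -0.89 (SE 0.17) in Std, and gelatin stood 2.31-fold and 1.89-fold above LN511. Of the exon bases of Vat1, 8.17% lie in exons of Rnd2, a gene on the opposite strand, and the strandedness of the libraries is not given in the sources used here. Whether reads from that overlap were assigned by strand is therefore not known. Between 132 and 440 fragments lay behind each value of Vat1.

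**Figure D1:**
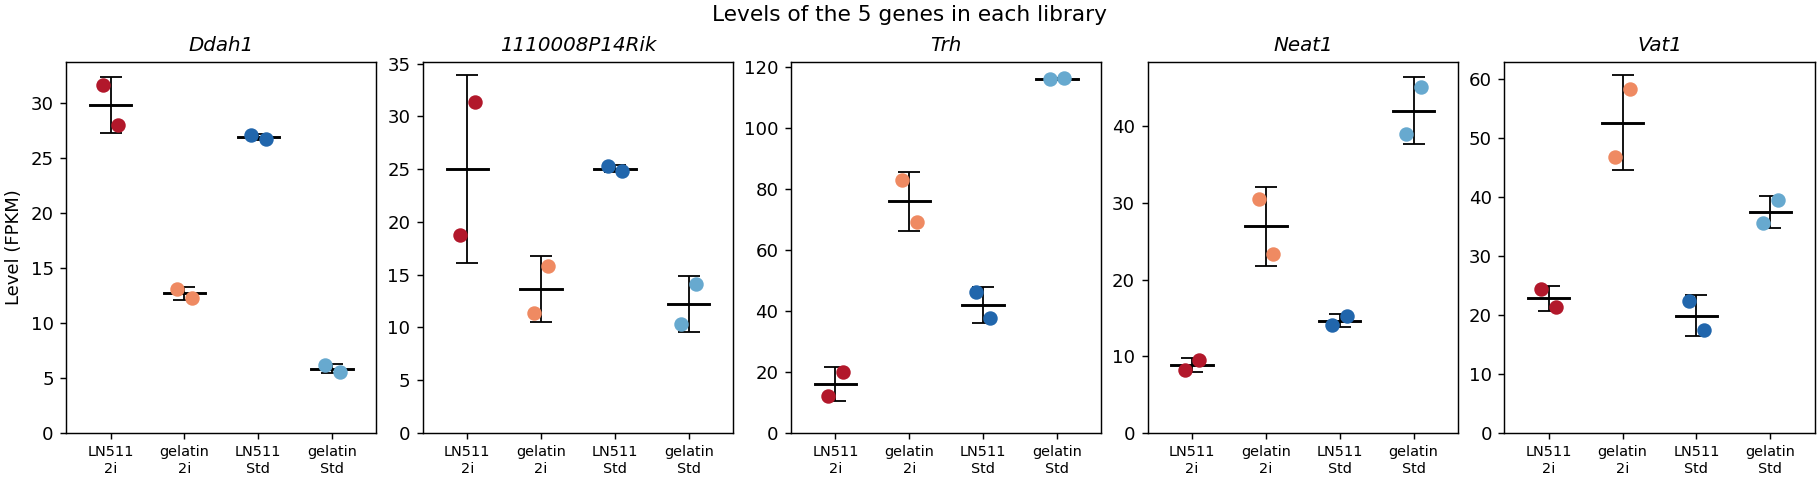
Level in FPKM (linear axes from 0, a scale of its own for each gene) of Ddah1, 1110008P14Rik, Trh, Neat1 and Vat1. Each point is 1 of the 2 libraries of a group, the line is their mean and the bar is ± SD. Within each medium the LN511 and gelatin points do not overlap in any panel, and the LN511 2i points of 1110008P14Rik, at 18.7 and 31.3 FPKM, lie farthest apart for their level.

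Set side by side, the coating differences in the 2 media come from separate libraries. For Neat1 they were nearly equal, at -1.50 in 2i and -1.46 in Std. For Ddah1 the difference was smaller in 2i (1.17) than in Std (2.03), and for Trh it was larger in 2i (-2.21) than in Std (-1.45). These gaps between media were not tested, since both differences chose the genes. Replicates that do not overlap and point the same way in both media were found for 13.8% of tested genes, 8.33% higher and 5.5% lower on LN511. The calls of limma over all genes are given next only to place the 5 genes, and nothing can be read from their counts, because the same values chose them. In Std, 3 of the 5 genes (Ddah1, Trh and Neat1) were past an adjusted p of 0.05 for the coating, where 2.1% of genes were. In 2i limma put 0 of the 5 past it, where 0.0195% of genes were past it. All 5 were under an unadjusted p of 0.05 in Std, where 15.8% of genes were, and in 2i, where 11.9% were. These counts too come from the values that chose the genes. The name coating-responsive in both media thus rests on direction and size and not on a call in each medium. 1110008P14Rik and Vat1 were past the threshold in neither. By size of the difference, Ddah1 was 73rd of 10278 genes in Std and 392nd in 2i, Trh 290th and 34th, Neat1 285th and 171st, Vat1 1080th and 397th, and 1110008P14Rik 855th and 1047th.

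**Figure D2:**
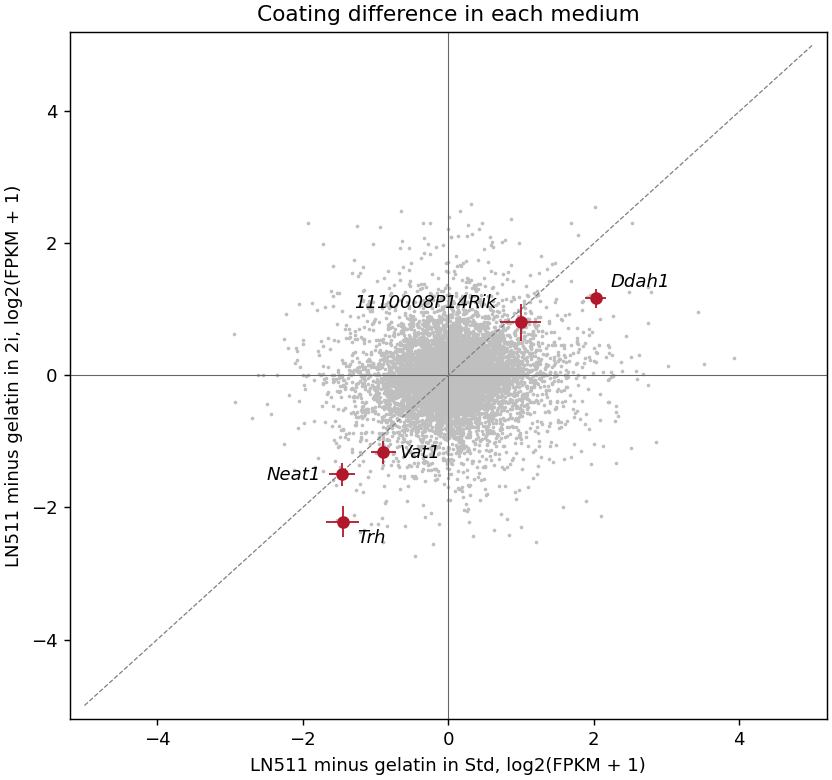
Difference of log2(FPKM + 1), LN511 minus gelatin, in Std (x axis) and in 2i (y axis) for 10278 tested genes (grey), with Ddah1, 1110008P14Rik, Trh, Neat1 and Vat1 in red and bars of ± SE. The dashed line marks equal differences. Neat1 lies on it, at -1.46 and -1.50, Ddah1 lies below it with the larger difference in Std, and Trh lies below it with the larger difference in 2i.

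The medium was the other factor of the design, and its mean effect over both coatings is independent of the differences that chose the genes. Its p-values use the same estimate of the spread as the coating contrasts, and genes chosen for clear differences may have small spreads. Trh fell in 2i by 0.99 (SE 0.16) on the log2 scale (limma adjusted p = 0.00555). Neat1 fell by 0.65 (SE 0.13, limma adjusted p = 0.00957), and Ddah1 rose by 0.57 (SE 0.10, limma adjusted p = 0.00732). Each of these 3 moved the same way on both coatings with no overlap of replicates, as did 34.5% of tested genes. Of the 5 genes 3 passed, where 27.9% of all tested genes did. With Vat1 included, 4 of the 5 were under an unadjusted p of 0.05, where 39.7% of all tested genes were.

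The differences between media on each coating were as follows. For Ddah1 the difference between the media was 0.14 on LN511 and 1.00 on gelatin, in means 1.11-fold and 2.17-fold. For Trh it was -1.37 on LN511 and -0.61 on gelatin, and for Neat1 -0.67 and -0.63. These values for each coating share libraries with the coating differences and carry no test. Vat1 did not pass, at 0.33 (SE 0.12, limma adjusted p = 0.0866). Its levels in 2i and Std overlapped on LN511 and did not on gelatin. 1110008P14Rik also did not pass, at 0.05 (SE 0.20, limma adjusted p = 0.88). For Trh and Neat1 the lower coating and the lower medium thus met in LN511 2i, which held the lowest level of both genes, and for Ddah1 gelatin Std held the lowest level.

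**Figure D3:**
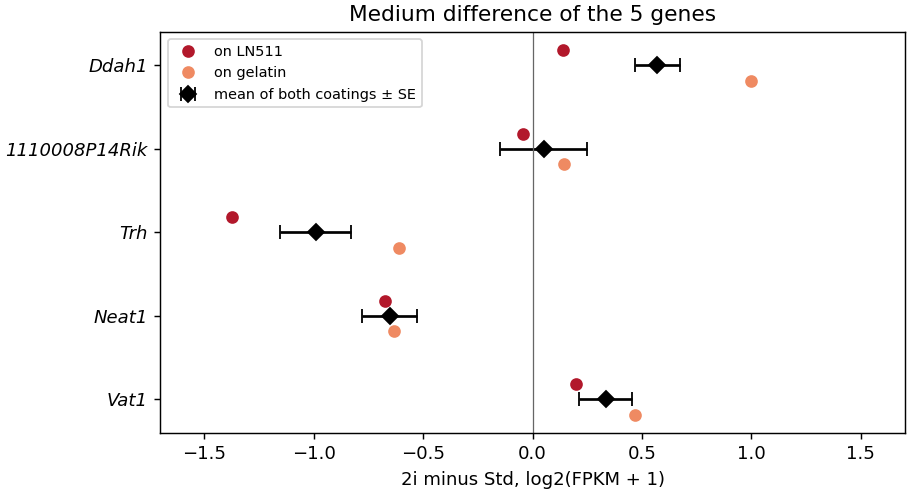
Difference of log2(FPKM + 1), 2i minus Std, for Ddah1, 1110008P14Rik, Trh, Neat1 and Vat1. Circles are the differences on LN511 and on gelatin, and the diamond is their mean with ± SE. Trh and Neat1 lie left of 0 on both coatings, Ddah1 lies at 0.14 on LN511 and 1.00 on gelatin, and 1110008P14Rik lies near 0.

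A list of other genes was set beside each of the 5, by known pathway or family except for 1110008P14Rik. Among 18 genes of methylarginine and nitric oxide metabolism, 10 were tested. For the coating limma called 0 of them, beside 2.1% of all genes in Std and 0.0195% in 2i. Their median log2 differences were 0.08 in 2i and -0.06 in Std (0.00 and 0.05 over all genes). The paralog Ddah2, of the same enzyme family, was at 47.3 and 58.4 FPKM in LN511 2i, against 52.7 and 44.6 FPKM in gelatin 2i. In Std it was at 17.2 and 15.3 FPKM on LN511, against 25.3 and 28.5 FPKM on gelatin. The coating difference of Ddah2 in Std, -0.69 (SE 0.16), did not pass (limma adjusted p = 0.0882) and has the opposite sign to that of Ddah1. With the medium, 2 of the 10 rose and 4 fell in 2i, beside 13.6% and 14.3% of all genes. Ddah2 rose by 1.23 (SE 0.11, limma adjusted p = 0.000496). The arginine methyltransferase genes Prmt1, at -0.38, Prmt5, at -0.36, and Prmt2, at -1.20, were among those that fell. The neuronal nitric oxide synthase gene Nos1 averaged 0.779 FPKM in LN511 2i, 1.45 FPKM in gelatin 2i, 1.05 FPKM in LN511 Std and 2.42 FPKM in gelatin Std. Nos2 and Nos3 averaged under 1 FPKM in every group.

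Of 12 genes for processing, sensing and breaking down TRH, 6 were tested. For the coating limma called 0 of them, beside 2.1% of all genes in Std and 0.0195% in 2i. Their medians were -0.30 in 2i and 0.04 in Std. Both receptor genes, Trhr and Trhr2, were listed at 0 in every library, and the prohormone convertase gene Pcsk1 averaged at most 2.05 FPKM. Furin and Cpe, also of the list, had no matched transcript row, so their levels are not known. In 2i medium, 3 of the 6 rose and 0 fell, beside 13.6% and 14.3% of all genes. They were Prep, a peptidase gene that averaged 95.1 and 86.0 FPKM in 2i on LN511 and gelatin, against 35.1 and 26.9 FPKM in Std, Qpct, whose enzyme forms the N-terminal pyroglutamate of such peptides (log2 2.00, SE 0.24), and Pgpep1, a pyroglutamyl peptidase gene. Qpct was low, at means of 3.40 and 5.07 FPKM in 2i on LN511 and gelatin, against 0.458 and 0.112 FPKM in Std. Its log2 difference ran from 1.86 to 3.74 over the alternative settings. The call of Pgpep1 (log2 0.73, limma adjusted p = 0.028) was lost without any single library other than LN511 2i replicate 1 or gelatin Std replicate 1 (0.0601 to 0.0809).

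Of 18 genes set beside Neat1, most of them for paraspeckle proteins, 15 were tested. The list also holds Malat1, a neighbour of Neat1 that is described below. For the coating in Std, 1 fell and 0 rose, beside 0.564% lower and 1.54% higher among all genes, and in 2i limma called 0, beside 0.0195%. The one that fell was Hnrnph3, which encodes an RNA-binding protein, at 17.8 and 18.3 FPKM in LN511 Std, against 45.9 and 46.0 FPKM in gelatin Std (log2 -1.30, SE 0.14, limma adjusted p = 0.0102). In 2i its difference was 0.35 and did not pass (limma adjusted p = 0.392), and leaving out any of the 4 Std libraries lost the call in Std (0.0666 to 0.0806). The genes of the core paraspeckle proteins Sfpq and Nono did not pass for the coating in either medium (limma adjusted p 0.169 to 0.921). Sfpq averaged 160 FPKM in LN511 2i and 163 FPKM in gelatin 2i, and 188 FPKM in LN511 Std and 161 FPKM in gelatin Std, and Nono was at 193, 208, 235 and 202 FPKM in the same order. The list's median coating difference was -0.03 in 2i and 0.03 in Std. With the medium, 1 rose and 6 fell in 2i, beside 13.6% and 14.3% of all genes, with a median of -0.26 (-0.02 over all genes). Pspc1, the gene of a further paralog of the Sfpq and Nono proteins, fell by 0.45 (SE 0.08, limma adjusted p = 0.00639). Nudt21, a subunit gene of the factor that favours the short Neat1 transcript, fell by 0.38 (SE 0.08, limma adjusted p = 0.0128). Without a trend in the variance prior Nudt21 did not pass (0.0531).

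Of 12 oxidoreductase and mitofusin genes set beside Vat1, 10 were tested. For the coating limma called 0 of them, beside 2.1% of all genes in Std and 0.0195% in 2i. Their medians were 0.04 in 2i and -0.02 in Std. With the medium, 1 of the 10 rose in 2i and 2 fell, beside 13.6% and 14.3% of all genes. Mfn1, which encodes a mitofusin of the mitochondrial outer membrane, rose in 2i (log2 1.32, SE 0.10, limma adjusted p = 0.00026). Ptgr1 and Rtn4ip1, genes of the same oxidoreductase superfamily as Vat1, fell by 0.57 (SE 0.11) and fell by 0.77 (SE 0.16).

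The 10 intermediate filament genes set beside 1110008P14Rik, for which no relation is claimed, were all tested. In Std medium 3 rose on LN511 and 0 fell, beside 1.54% and 0.564% of all genes, with a median of 0.63. In 2i limma called 0, beside 0.0195% of all genes, with a median of 0.20. The 3 called in Std were the simple epithelial keratin genes Krt8 (log2 3.93), Krt18 (log2 2.75) and Krt19 (log2 2.58). Krt19 was at 21.9 and 18.4 FPKM in LN511 Std, against 2.13 and 2.99 FPKM in gelatin Std, and at 1.51 and 2.06 FPKM in LN511 2i, against 1.27 and 2.09 FPKM in gelatin 2i. Leaving out any of the 4 Std libraries lost the calls of Krt18 and Krt19 (limma adjusted p 0.0521 to 0.0972) and kept that of Krt8. 1110008P14Rik differed in both media by similar amounts. Of the list, Lmna (log2 0.89 in 2i and 0.66 in Std), Nes (log2 0.66 and 0.60) and, at a smaller size, Lmnb2 (log2 0.25 and 0.18) did so too. They were picked for this likeness after their values were seen. None of them passed for the coating in either medium (limma adjusted p 0.0867 to 0.69). In the mean over both coatings, 2 of the 10 rose in 2i and 5 fell, beside 13.6% higher and 14.3% lower among all genes. Those that rose were the lamin gene Lmna (log2 1.03, SE 0.10) and the vimentin gene Vim (log2 0.58). Among those that fell were Krt18 (log2 -2.15), Krt19 (log2 -1.67) and Krt8 (log2 -0.87). Krt18 was lower in 2i on both coatings. Krt8 was lower in 2i only on LN511, at a mean of 13.0 against 90.4 FPKM in Std. On gelatin Krt8 was higher in 2i, at 10.7 against 4.98 FPKM. Krt19 fell mostly on LN511, from 20.2 to 1.78 FPKM, against 2.56 to 1.68 FPKM on gelatin.

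**Figure D4:**
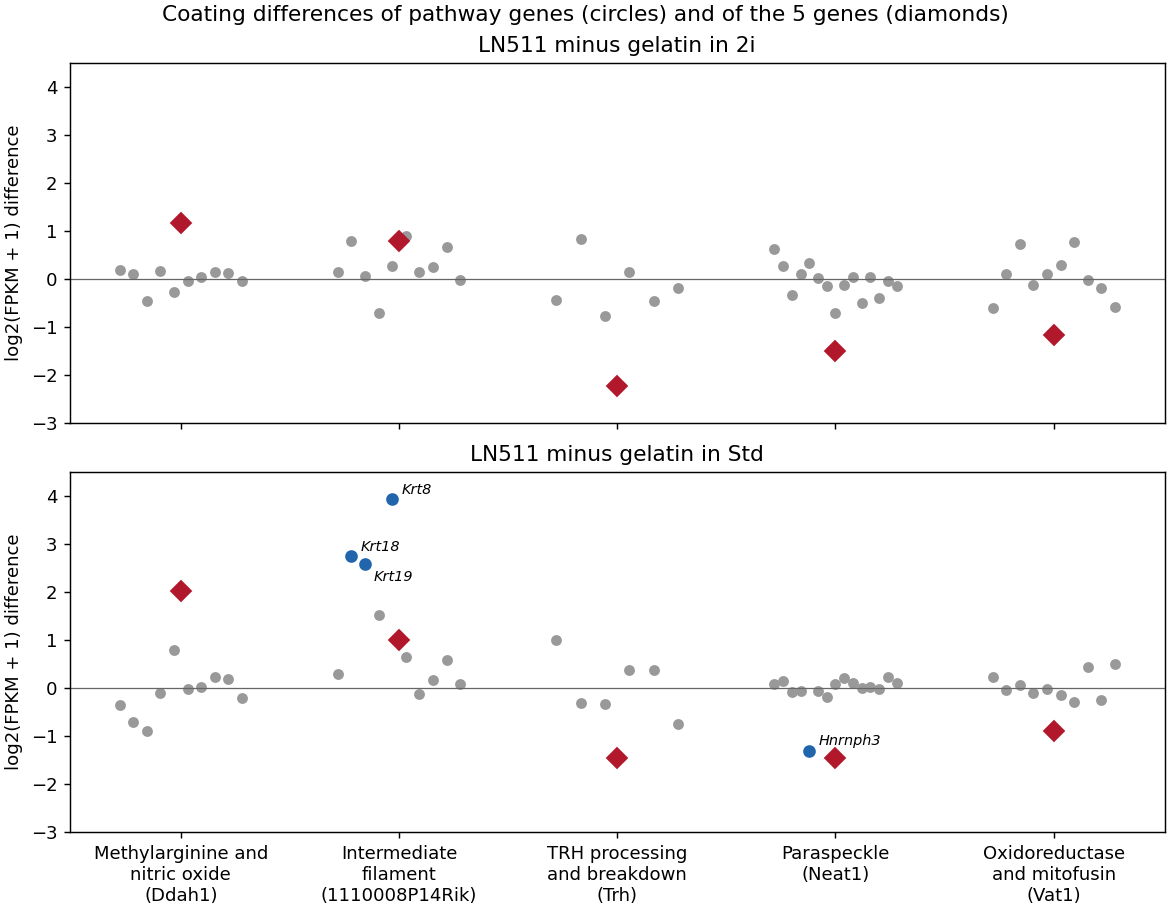
Difference of log2(FPKM + 1), LN511 minus gelatin, in 2i (upper panel) and in Std (lower panel). Circles are the tested genes of each list, in blue and named where limma called them, and diamonds are Ddah1, 1110008P14Rik, Trh, Neat1 and Vat1. Apart from Hnrnph3, Krt8, Krt18 and Krt19 in Std, no list gene was called, and 0 were called in 2i.

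The nearest genes with a transcript row on each side were examined for each of the 5. Upstream of Ddah1, 108707 bases away, lies Ccn1, which encodes a secreted matrix protein and is a known target of the YAP factor. Ccn1 was at 43.0 and 44.0 FPKM in LN511 2i, against 16.9 and 16.1 FPKM in gelatin 2i. In Std it was at 77.7 and 78.5 FPKM on LN511, against 11.3 and 10.4 FPKM on gelatin. It rose on LN511 by 1.35 (SE 0.11, limma adjusted p = 0.0369) in 2i and by 2.74 (SE 0.11, limma adjusted p = 0.000351) in Std. It was the 1 gene of 10278 (0.00973%) called for the coating in both media. Leaving out any single library lost its call in 2i (0.0595 to 0.163), as did a pseudocount of 0.1, the fit without trend and the replicate block, and without 1 library the difference stayed at 1.32 to 1.38. Both Ccn1 and Ddah1 were higher on LN511 with a larger difference in Std, but with the medium Ccn1 was lower in 2i on LN511 and higher on gelatin. Bcl10, an adaptor gene of NF-kB signalling 29985 bases to the other side, showed coating differences of 0.19 in 2i and 0.34 in Std that did not pass (limma adjusted p = 0.69 and 0.359).

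Malat1, a nuclear long non-coding RNA that is also in the list set beside Neat1, lies 22036 bases from Neat1. It was at 50.2 and 43.1 FPKM in LN511 2i, against 54.6 and 48.9 FPKM in gelatin 2i, and at 79.7 and 71.9 FPKM in LN511 Std, against 84.1 and 86.9 FPKM in gelatin Std. Its coating differences were -0.15 in 2i and -0.17 in Std and did not pass (limma adjusted p = 0.664 and 0.521), while in 2i it fell by 0.70 (SE 0.08, limma adjusted p = 0.00137). Malat1 thus shared the medium difference of Neat1, and its coating differences were much smaller in these values, a contrast that was not itself tested. Frmd8, 5494 bases to the other side of Neat1, had small positive coating differences (0.37 in 2i and 0.27 in Std) that did not pass.

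Ifi35, an interferon-induced gene, lies 47 bases from Vat1 on one side, and Rnd2 1976 bases on the other by RefSeq coordinates. Both have a 0 in 1 library or more beside values over 5 FPKM and were not tested. Rnd2 was at 3.46 and 6.67 FPKM in LN511 2i, 0 and 17.6 FPKM in gelatin 2i, 0 and 16.3 FPKM in LN511 Std and 26.6 and 30.4 FPKM in gelatin Std. Those zeros leave no usable coating difference. Ciz1, 788 bases from 1110008P14Rik by RefSeq coordinates and overlapping it on the opposite strand in GENCODE without shared exons, did not exceed 2.28 FPKM in any library, and Lcn2 on its other side was listed at 0 throughout. Neither of the neighbours of Trh, Rbsn and Prickle2, passed for the coating (limma adjusted p 0.609 to 1), and Prickle2 stayed under 1.32 FPKM.

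**Figure D5:**
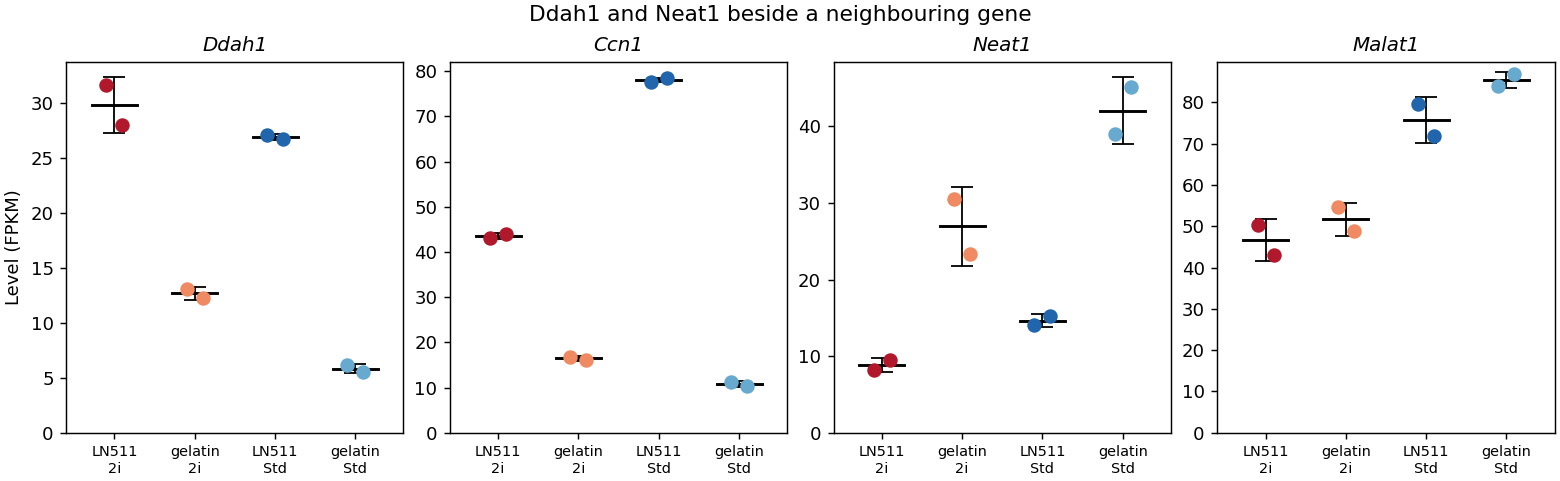
Level in FPKM (linear axes from 0, a scale of its own for each gene) of Ddah1 and its neighbour Ccn1 and of Neat1 and its neighbour Malat1. Points are libraries, lines are means of 2 and bars are ± SD. Ddah1 and Ccn1 are both higher on LN511 in both media, and the coatings are far apart for Neat1 and close together for Malat1.

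The 5 genes were set beside one another and beside 6872 other genes with a group mean of 5 FPKM or more, by Pearson's r of log2(FPKM + 1) over the 8 libraries. All 8 points share 4 groups, so an r near 1 reflects group means as well as replicates. Among the 5 genes, the coating differences that chose them also set the sign and much of the size of r, so these values are a description. Trh and Neat1 were among the 3 nearest genes of each other, with r = 0.97, the highest of any pair of the 5. Ddah1, higher where they were lower, was at r = -0.89 with Trh and -0.95 with Neat1. Vat1 was less close, at r = 0.65 with Trh and 0.69 with Neat1, and 1110008P14Rik was at r = 0.81 with Ddah1.

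The genes most like Ddah1 were Tpm4, a tropomyosin gene of the actin cytoskeleton (r = 0.99), Bmerb1 (0.98) and Copb2, a coatomer subunit gene (0.97). Tpm4 was at 103 and 103 FPKM in LN511 2i, against 57.8 and 58.0 FPKM in gelatin 2i, and at 89.4 and 88.3 FPKM in LN511 Std, against 43.8 and 38.7 FPKM in gelatin Std, the same order of groups as for Ddah1. Neat1 was closest to Aldh1b1, which encodes a mitochondrial aldehyde dehydrogenase (0.99), then Trh and Polr3g, a subunit gene of RNA polymerase III (0.96). Polr3g (0.97) and Aldh1b1 (0.95) were also the other two nearest to Trh. Aldh1b1 was at 2.33 and 2.37 FPKM in LN511 2i, against 5.47 and 4.72 FPKM in gelatin 2i, and at 3.10 and 2.96 FPKM in LN511 Std, against 6.28 and 6.16 FPKM in gelatin Std. Its range was much smaller than that of Neat1, and a high r does not mean a change of like size. Vat1 was closest to Timeless, of the replication fork (0.98), Zfp263 (0.98) and Insig1, a regulator gene of sterol synthesis (0.95). For 1110008P14Rik the nearest were the centromere gene Cenpn (0.97), the splicing factor gene Srsf3 (0.95) and the bromodomain gene Brd2 (0.94), each also lower in LN511 2i replicate 1 than in replicate 2.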

How the data were processed

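The authors deposited FPKM values per gene symbol and per transcript, 1 column per library, and 0 sample columns were left out. The build was mm10 and the tools included TopHat2 2.1.1 and Cufflinks 2.1.1, per the submitters' processing notes. How they were set, with which annotation and strand option, and whether libraries were rescaled is not stated in the labels. Of 32688 RefSeq transcripts, 31786 matched a symbol in RefSeq's table for GRCm38.p6, and their FPKM were summed per gene. The 21844 rows of assembled transcripts were left out. The 5 genes, the gene lists and the tests were chosen with earlier results of these data known.

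The filter asked for 1 FPKM or more in 2 or more libraries (11244 genes). Doubtful zeros then removed 836 genes in which a replicate was at 0 while its partner reached 5 FPKM, and 130 in which a whole group was at 0 while the mean of some other group reached 5 FPKM, leaving 10278. Genes were tested on log2(FPKM + 1) by limma (version 3.58.1, R version 4.3.3), with 1 mean per group, all 8 libraries, eBayes with trend and Benjamini-Hochberg adjustment over all tested genes, called at 0.05. Fold changes on that scale understate the change of low genes. The fit was tested on simulated data for the medium contrast only. It recovered 66% of 100 changes of log2 size 1 and 88% of 100 of size 2, and called 8 unchanged genes. The coating contrasts were not tested in this way. SE comes from this fit and SD from the 2 libraries of a group. Genes were named by a rule: Ddah2, the nearest gene with a row on each side of each of the 5, the 3 genes with the highest r to each, and per list and contrast at most 4 called genes by adjusted p, or else the one with the highest mean. A gene that this rule names is not reported here. Some others were named after their values were seen (Nos1 to Nos3, the receptor and convertase genes of TRH, Cpe, Sfpq, Nono, Nes, Lmnb2 and Krt7). Promoter windows come from RefSeq, which matched 4 of the 5 genes. Transcript lengths and exon overlaps come from GENCODE M21 for GRCm38. Fragments behind a level were estimated from the FPKM step on transcripts of 3000 to 6000 bases, cover counting error only and use annotated lengths. Alternatives are given in the closing section.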

Additional observations from a re-analysis of the deposited data

How the results depend on the processing

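The medium calls of Trh, Neat1 and Ddah1 held in all 15 alternatives that gave a value (limma adjusted p 0.00229 to 0.0254, 0.00875 to 0.0373 and 0.00681 to 0.0296), and Vat1 (0.0656 to 0.221) and 1110008P14Rik (0.388 to 0.995) passed in none. With 1 library left out, the medium effect was -1.16 to -0.82 for Trh, -0.75 to -0.56 for Neat1 and 0.53 to 0.61 for Ddah1. The deposited gene table lists 27 of 40 values of the 5 genes above 0, all within 0.1% of the transcript sums, and gave a fit only for 1110008P14Rik. With fewer genes to test (2784 against 10278), it called 509 for the medium against 2864, and 135 for the coating in Std against 216. Among list genes it reversed Pgpep1 (-1.04). For the coating in Std, leaving out 1 library gave 9 to 199 calls. For the coating in 2i it gave 0 to 12 against 2, and other settings gave 0 (pseudocount of 0.1), 15 (no filter), 42 (doubtful zeros kept), 54 (gene table) and 8 (no trend). A pseudocount of 0.1 put the Ddah1 difference in Std at 2.19. Leaving out 1 library gave coating differences in 2i of 1.09 to 1.25 for Ddah1, 0.45 to 1.16 for 1110008P14Rik, -2.56 to -1.87 for Trh, -1.69 to -1.31 for Neat1 and -1.32 to -1.01 for Vat1, and none changed sign in either medium. The cause of these changes was not tested. The r of replicate differences between groups was -0.02 to 0.02. With 1 such difference per group, it does not settle whether replicate numbers pair the samples. With the replicate block, 80 genes were called for the coating in Std, 0 in 2i and 2583 for the medium, with the calls of Trh, Neat1 and Ddah1 kept. About 16 fragments at the fewest limit 1110008P14Rik most.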
